A study of Mus musculus with 6 samples.

Results

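The genes described here are 10 members of mouse chromosome 2, on either side of Nfe2l2, the gene encoding Nrf2. Each was listed for a difference in probe set signal between livers of Nrf2 knockout and wild-type mice. For 5 of the genes a probe set passed the threshold used below. The 10 members are Rbm45, Tfpi, Ptpmt1, Haus2, Bloc1s6, Nckap1, Dnajc10, B3galt1, Slc25a12 and Ccdc141. They were chosen because of their difference between these same 6 arrays, so their genotype differences, and the counts of them called in the fit over the whole array, are given as a description and support nothing. No p is printed for a member. All probe sets annotated to exactly 1 of these symbols were taken, which gave 31 probe sets for the 10 genes, of 45037 probe sets and 18193 named genes on the array. A probe set is a group of short probes that reports 1 transcript or part of 1, and several probe sets of 1 gene are called sister probe sets here. Of the 31, 27 were bright enough to be tested, and the other 4, of Ccdc141 and Slc25a12, lay under the filter on low values.

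Livers of Nrf2-deficient mice and of wild-type controls, both labelled C57B/SV129 and 10 weeks old, were compared with 3 arrays per genotype. RNA of 3 animals was pooled for each array, so errors below are between pools and not between animals. No treatment, injury or surgery is named for any animal, and the labels give neither the design of the Nrf2 allele nor the strain of the stem cells in which it was made. Nor do they say whether knockout and control mice were littermates or whether pools shared animals.

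Nrf2 is a transcription factor that is held low by Keap1 and, once released, binds antioxidant response elements to drive detoxification and glutathione genes. A gene disrupted in stem cells of a given strain stays linked to that strain's DNA on either side of it, for a distance that shrinks with backcrossing. Array probes are short, so a variant within a probe's target can lower its signal without any change in the amount of transcript. Strain DNA can also carry regulatory variants that do change the amount. In these arrays loss of Nrf2 and any DNA that travels with the allele cannot be told apart, because both would be present in the same pools. Sister probe sets are therefore set side by side below, gene by gene.

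The members differ in function. Rbm45 encodes an RNA-binding protein with RNA recognition motifs. Tfpi encodes the inhibitor of the tissue factor pathway, made largely by endothelial cells, and Ptpmt1 a mitochondrial phosphatase of cardiolipin synthesis. Haus2 is a subunit of augmin, which recruits gamma-tubulin to spindle microtubules, and Bloc1s6, or pallidin, is a subunit of the BLOC-1 complex of lysosome-related organelles. Nckap1 is a subunit of the WAVE complex, which activates actin nucleation by Arp2/3. Dnajc10, or ERdj5, is a disulfide reductase of the endoplasmic reticulum that assists degradation of misfolded proteins. B3galt1 is a beta-1,3-galactosyltransferase, Slc25a12 is the mitochondrial aspartate-glutamate carrier aralar, and Ccdc141 is a coiled-coil protein studied in neuronal migration.

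Because Nrf2 acts through antioxidant response elements, the promoters of the members were searched for the core of that element, TGACNNNGC, on both strands. The window ran from 250 bases before to 50 bases after each annotated gene start, in RefSeq sequence of GRCm38.p6. RefSeq promoters were at hand for 8 of the 10 genes, 11 promoters in all, the genes without one being Bloc1s6 and Nckap1. The core was found in 3 of the 11, and in 12.4% of all 32851 promoters of the same length. The 3 promoters with a match are shown 5′ to 3′ on the strand of the gene, with the matching bases in capitals. They are B3galt1 at chr2:67565439-67565738 on the plus strand, Ptpmt1 at chr2:90918001-90918300 on the minus strand, and the second annotated start of Haus2 at chr2:120609345-120609644 on the plus strand.
B3galt1: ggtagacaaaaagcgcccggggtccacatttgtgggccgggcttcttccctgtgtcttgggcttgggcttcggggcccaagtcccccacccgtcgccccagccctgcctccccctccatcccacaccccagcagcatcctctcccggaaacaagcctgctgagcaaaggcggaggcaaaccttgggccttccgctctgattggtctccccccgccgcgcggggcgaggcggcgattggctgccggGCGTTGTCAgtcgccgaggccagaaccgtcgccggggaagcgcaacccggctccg
Ptpmt1: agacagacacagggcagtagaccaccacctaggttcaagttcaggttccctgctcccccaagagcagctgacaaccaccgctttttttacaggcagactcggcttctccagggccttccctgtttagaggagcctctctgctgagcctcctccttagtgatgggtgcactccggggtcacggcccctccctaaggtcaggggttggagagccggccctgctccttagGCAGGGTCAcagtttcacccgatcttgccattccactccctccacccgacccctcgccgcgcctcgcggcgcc
Haus2: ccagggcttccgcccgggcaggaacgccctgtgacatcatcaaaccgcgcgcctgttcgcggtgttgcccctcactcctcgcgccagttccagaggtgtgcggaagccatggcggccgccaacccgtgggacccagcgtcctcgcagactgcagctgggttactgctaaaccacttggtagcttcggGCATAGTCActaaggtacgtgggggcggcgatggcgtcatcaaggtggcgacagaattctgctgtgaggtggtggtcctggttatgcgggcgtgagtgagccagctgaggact
In each of them the match lies on the opposite strand, where it reads TGACAACGC for B3galt1, TGACCCTGC for Ptpmt1 and TGACTATGC for Haus2. Its capitals begin 5, 23 and 63 bases before the gene start. A match is a description of the letters, not a measured binding site. The 3 genes went different ways: Ptpmt1 was higher in the knockout, all 5 B3galt1 probe sets were lower, and Haus2 probe sets went both ways. The promoters of Rbm45, Tfpi, Dnajc10, Slc25a12 and Ccdc141 hold no match in this window.

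Nfe2l2 itself was read first. Its probe set 1416543_at read 5.74, 7.40 and 6.90 across the knockout pools against 696, 598 and 625 across the wild-type pools, so each array matched its label there. Its dim sister 1457117_at lay between 20.2 and 34.4 on all arrays, with overlapping groups and a difference of 0.14 ± 0.22, and the place of either within the gene was not analysed here. Median intensity over all non-control probe sets ran from 14.5 to 22.1 per array. The ratio of 3′ to 5′ actin signal, a sign of RNA integrity, was 1.94 to 2.01 on knockout arrays and 1.77 to 1.94 on wild-type arrays, and its part in the differences below was not tested. Hepatocyte markers, with 3 of 6 higher and 3 lower and a median log2 difference of 0.03, were bright on all arrays. Their deposited intensities summed to 65216 to 68509 for knockout and 69295 to 70590 for wild type, which do not overlap. After normalization the sums were 67967 to 70695 and 67244 to 68570, which overlap. Median log2 differences were -0.05 for Kupffer cell (6 tested), 0.12 for stellate cell (7 tested, all higher), -0.22 for cholangiocyte (2 tested) and 0.31 for lymphocyte and granulocyte markers (4 tested, all higher). Of the stellate cell markers Des was at 1.0 ± 0.31, and the others ran from 0.06 for Lrat to 0.33 for Col1a1. The single tested markers of red blood cells and of muscle were at -0.39 and -0.15, and no marker of any list was called. The number of arrays limits the precision of every value.

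Over the 27 tested member probe sets, 10 had a higher mean and 17 a lower mean in the knockout, with values compared as log2(intensity + 5.26) after quantile normalization. Called below means an adjusted p under 0.05 in a limma fit over all 22519 tested probe sets. Of the members' probe sets 5 were called, 3 higher and 2 lower, where 0.142% of all tested probe sets were called (0.0444% higher and 0.0977% lower). The groups of 3 did not overlap for 17 of the 27, against 13.4% of all tested probe sets, and 7 differed at least 2-fold, against 0.688%. The members were picked from this contrast, so nothing is read from these shares. The count of 5 fell to 1 without knockout pool 1 or 2, and to 2 without knockout pool 3 or any 1 of the wild-type pools. With all pools kept it was 1 with no filter, with no intensity trend or with the replicate number as a block, 2 when probe sets under the 70th percentile of mean signal were left out, and 4 to 6 with other pseudocounts, median centring or array weights. The called probe sets belong to 5 genes, Rbm45, Ptpmt1 and Bloc1s6 with higher signal and Tfpi and Haus2 with lower signal.

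**Figure D1:**
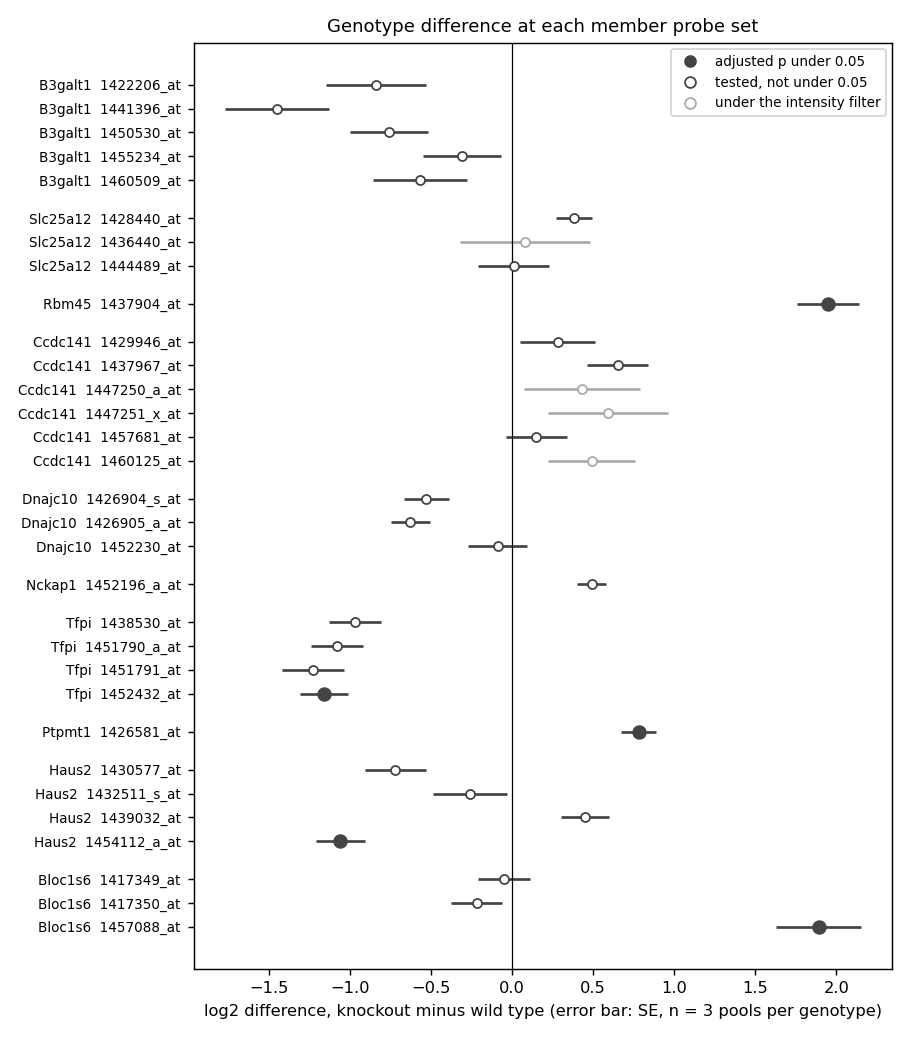
Log2 difference (knockout minus wild type, x axis) at each of the 31 member probe sets, grouped by gene in chromosomal order; points are differences, bars are SE with 3 pools per genotype, filled points passed an adjusted p of 0.05 and grey points lay under the intensity filter. The 4 Tfpi probe sets sit together between -1.23 and -0.97, while those of Bloc1s6 span -0.22 to 1.89 and those of Haus2 -1.06 to 0.45.

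Rbm45 was higher in the knockout and was measured by 1 probe set, 1437904_at. Its deposited intensities were 167, 191 and 213 across the knockout pools and 52.7, 54.4 and 44.3 across the wild-type pools. Each knockout pool was thus at least 3 times as bright as any wild-type pool before normalization. On the normalized log2 scale the difference was 1.95 ± 0.19 (SE, n = 3 per genotype), 3.87-fold higher in the knockout. Knockout pools had an SD of 0.05, and wild-type pools one of 0.37. Rbm45 is the nearest member to Nfe2l2, 4 tested genes away. With no sister probe set, a changed amount of transcript and a changed fit of these probes cannot be told apart. Over 14 alternatives the difference ran from 1.68 to 2.16.

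Ptpmt1, 44 tested genes from Nfe2l2 on the same side, also had a single probe set and was higher in the knockout. Intensities of 1426581_at were 636, 635 and 847 across the knockout pools and 574, 349 and 457 across the wild-type pools. The groups did not overlap, although knockout pool 2 and wild-type pool 1 came close on the deposited scale. The difference was 0.78 ± 0.11 (SE, n = 3 per genotype), 1.72-fold. Of 14 alternatives, 3 kept the call, and without any single pool it was lost.

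Nckap1, 18 tested genes away, also had a single probe set, with a smaller difference. Its intensities were 1118, 1267 and 1527 for knockout and 1252, 771 and 1130 for wild type, and these deposited values overlap. After quantile normalization they did not overlap, at 10.39 to 10.45 against 9.83 to 10.05 log2. The difference was 0.49 ± 0.09 (SE, n = 3 per genotype), 1.41-fold, and it was not called in any setting.

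Tfpi was lower in the knockout at all 4 of its probe sets. Intensities of 1452432_at were 63.1, 58.1 and 84.3 across the knockout pools and 216, 148 and 164 across the wild-type pools, a difference of -1.16 ± 0.15 (SE, n = 3 per genotype) or 2.23-fold. At 1451791_at the knockout pools read 80.2, 60.8 and 103, and the wild-type pools 218, 207 and 218. At 1451790_a_at they read 63.3, 65.8 and 90.2 against 181, 172 and 172, and at 1438530_at 72.5, 100 and 119 against 260, 188 and 195. In all 4 each knockout pool was below each wild-type pool, on the deposited scale and on the normalized scale. The log2 differences were -1.23, -1.08 and -0.97 for the last 3, so the 4 probe sets spanned 0.27. Genes with 4 tested probe sets numbered 547, and 40.4% of them had a narrower span. The 4 probe sets were designed from 3 sequence records, 2 of them from the same one.

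The call at Tfpi rested on 1452432_at, which passed in 7 of 14 alternatives, while its sisters passed in 1 or 2. Tfpi is made by endothelial cells, so markers of the sinusoidal endothelium were read on the same arrays. Of 8 tested markers, 6 were higher and 2 lower in the knockout, none was called, and their median difference was 0.18. Their summed normalized signal ran from 3338 to 3428 for knockout and from 2983 to 3337 for wild type, so the groups nearly touched. The deposited sums overlapped, at 2838 to 3606 for knockout and 2578 to 3955 for wild type. The part of cell composition in the Tfpi difference was not tested. In liver pools fewer cells of a type and less transcript per cell cannot be told apart.

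**Figure D2:**
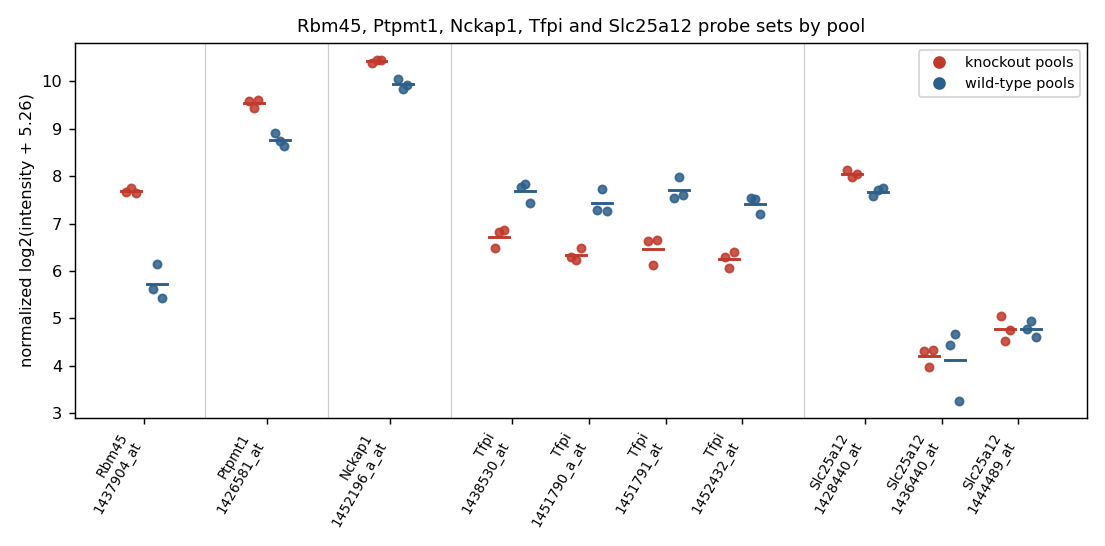
Normalized log2(intensity + 5.26) on the y axis for each pool at the probe sets of Rbm45, Ptpmt1, Nckap1, Tfpi and Slc25a12; red points are knockout pools, blue points wild-type pools and short lines are group means (n = 3), with levels comparable within a probe set and not between probe sets. The 4 Tfpi probe sets show the same separation, and Slc25a12 separates at 1428440_at alone.

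Bloc1s6 showed the widest disagreement between sister probe sets. At 1457088_at the knockout pools read 67.0, 119 and 87.1 and the wild-type pools 38.1, 14.4 and 19.5. Every knockout pool was above every wild-type pool, and the difference was 1.89 ± 0.26 (SE, n = 3 per genotype), 3.70-fold. Wild-type pools 2 and 3 read below the median of their own arrays, 14.5 and 21.6, and wild-type pool 1 above its median of 22.1. The wild-type level at this probe set was therefore low. At 1417349_at the pools overlapped, with 327, 366 and 311 for knockout and 515, 304 and 370 for wild type, a difference of -0.05 ± 0.16. At 1417350_at they overlapped as well, with 47.4, 60.3 and 70.4 against 98.6, 50.9 and 86.8, a difference of -0.22 ± 0.16. The 2 probe sets that did not separate the genotypes were designed from 1 shared RefSeq transcript record, and the third from a different record. The span between sisters was 2.11 log2, wider than for 99.8% of the 1265 genes with 3 tested probe sets. Bloc1s6 thus separated the genotypes at 1 probe set of 3. Its call was kept in 3 of the 13 alternatives that tested the probe set.

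Haus2 was the only member with non-overlapping groups in both directions, at different probe sets. At 1454112_a_at the knockout pools read 36.1, 37.5 and 41.0 and the wild-type pools 101, 84.6 and 96.0, a difference of -1.06 ± 0.15 (SE, n = 3 per genotype) or 2.08-fold lower. At 1439032_at they read 80.9, 92.2 and 81.3 against 74.8, 59.1 and 68.1, a difference of 0.45 ± 0.15 in the other direction. Neither pair of groups overlapped. At 1430577_at the knockout was lower, with 51.8, 37.9 and 41.5 against 86.7, 60.6 and 104, a difference of -0.72 ± 0.19. At 1432511_s_at the groups overlapped (-0.26 ± 0.23). The span of 1.51 was wider than for 99.6% of the 547 genes with 4 tested probe sets. The 4 probe sets were designed from 4 different sequence records, and the call at 1454112_a_at was kept in 4 of 13 alternatives.

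Dnajc10, 16 tested genes from Nfe2l2, had a lower mean in the knockout at all 3 of its probe sets, with groups that did not overlap at 2. At 1426905_a_at the pools read 197, 240 and 295 for knockout and 466, 308 and 513 for wild type, a difference of -0.63 ± 0.12 (SE, n = 3 per genotype) or 1.54-fold. At 1426904_s_at they read 165, 172 and 173 against 281, 211 and 358, a difference of -0.53 ± 0.14. Both probe sets kept the groups apart. At 1452230_at they overlapped, with 81.5, 122 and 103 against 166, 80.9 and 125, a difference of -0.09 ± 0.18. All 3 were designed from the same sequence record, so here the disagreement arose within 1 record. Their span of 0.54 was wider than for 89.0% of genes with 3 tested probe sets, and none was called.

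B3galt1, on the other side of Nfe2l2 and 33 tested genes from it, was lower in the knockout at each of 5 probe sets but by unequal amounts. At 1441396_at the knockout pools were tightly grouped at 62.4, 66.9 and 64.9, and the wild-type pools were spread over 251, 92.7 and 377. The difference there was -1.45 ± 0.32 (SE, n = 3 per genotype), 2.73-fold. At 1450530_at the groups were also apart, with 43.0, 44.8 and 33.9 against 75.5, 53.4 and 121, a difference of -0.76 ± 0.24. At the other 3 the groups overlapped, with differences of -0.84 ± 0.31, -0.57 ± 0.29 and -0.31 ± 0.24. Wild-type pool 3 was the highest of the 6 arrays at 5 of 5 probe sets after normalization, so that 1 pool stands apart for this gene. Without that pool the difference at 1441396_at was -1.10. No B3galt1 probe set was called with all pools, and 1441396_at was called, at -1.85, when wild-type pool 2 was left out.

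**Figure D3:**
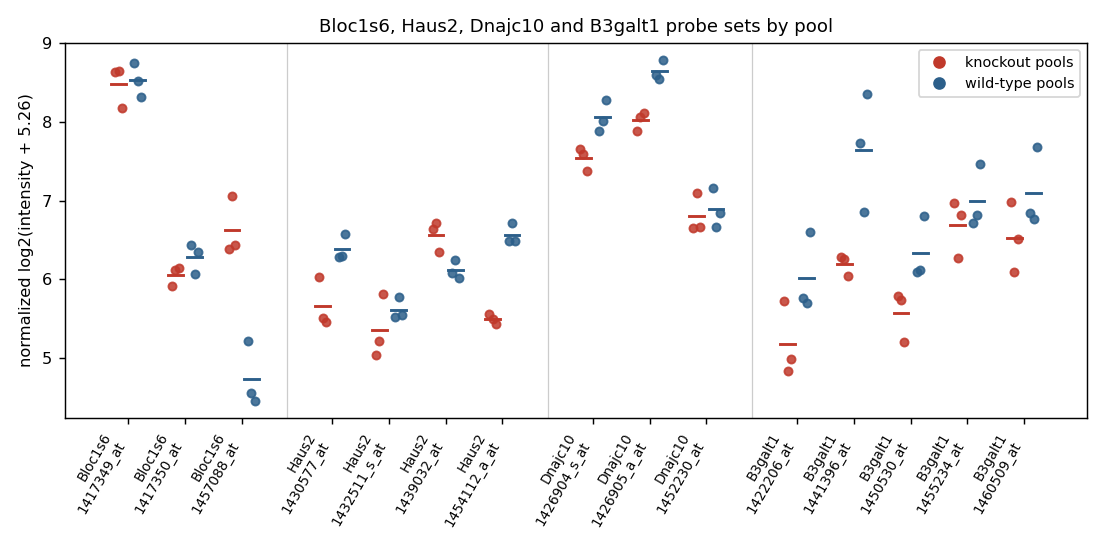
Normalized log2(intensity + 5.26) on the y axis for each pool at the sister probe sets of Bloc1s6, Haus2, Dnajc10 and B3galt1; red points are knockout pools, blue points wild-type pools and short lines are group means (n = 3), with levels comparable within a probe set only. The genotypes separate at 1457088_at and not at the other Bloc1s6 probe sets, and Haus2 changes sign between 1454112_a_at and 1439032_at.

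Slc25a12 and Ccdc141 had small differences and no called probe set. Slc25a12 probe set 1428440_at read 229, 225 and 282 across the knockout pools and 225, 170 and 241 across the wild-type pools. These deposited values overlap, and the normalized values did not, with a difference of 0.38 ± 0.11 (SE, n = 3 per genotype). Its tested sister was at 0.01 ± 0.22, and the third, under the filter, at 0.08 ± 0.40. Slc25a12 lies 16 tested genes from Nfe2l2, on the side of B3galt1.

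Ccdc141, 8 tested genes from Nfe2l2 on the side of Rbm45, had 6 probe sets, all with a higher mean in the knockout. At 1437967_at the pools read 76.7, 119 and 128 against 105, 52.8 and 67.1, which overlap as deposited and did not after normalization, with a difference of 0.65 ± 0.19 (SE, n = 3 per genotype). The other 2 tested probe sets were at 0.28 ± 0.23 and 0.15 ± 0.19, and both overlapped. The 3 under the filter were at 0.43, 0.59 and 0.49, and their intensities were all under 24 with no detection call to read them by.

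Among the 7 members with more than 1 tested probe set, Haus2 and Bloc1s6 had tested probe sets of both signs. Mixed signs were frequent in the data at large, at 49.7% of the 5096 genes with 2 or more tested probe sets. Wide spans were rare, with a median of 0.20 log2 over those genes and 0.805% of them over 1. Bloc1s6, Haus2 and B3galt1, at 2.11, 1.51 and 1.13, were over 1, and Tfpi, Dnajc10, Ccdc141 and Slc25a12, at 0.27, 0.54, 0.49 and 0.37, were not. The span comes from the contrast that chose the members and is given as a description. The pooled SD between replicate pools had a median of 0.24 over the tested member probe sets and of 0.20 over all tested probe sets. The highest values among the tested members were those of the B3galt1 probe sets, at 0.36 to 0.54, and of Bloc1s6 1457088_at, at 0.40, and Nckap1 and Slc25a12 1428440_at had the lowest, both at 0.08.

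The members were then placed in the gene order of chromosome 2. In the order of tested genes, B3galt1 and Slc25a12 precede Nfe2l2 by 33 and 16 genes. Rbm45, Ccdc141, Dnajc10, Nckap1, Tfpi and Ptpmt1 follow it within 44 genes, and Haus2 and Bloc1s6 lie farther on, at 170 and 194 genes. Higher and lower members are interleaved along this order: Rbm45 and Ccdc141 higher, Dnajc10 lower, Nckap1 higher, Tfpi lower and Ptpmt1 higher. Steps in tested genes are not distances in bases. The promoter windows begin at base 76369734 for Rbm45, 90918001 for Ptpmt1 and 120609132 for Haus2, against 75704614 for Nfe2l2. How far DNA linked to Nfe2l2 reaches in these mice was not tested. Within 100 tested genes on each side, 3 of 200 genes had a called probe set (1.5%), against 0.156% of 10226 genes on other chromosomes and 0.198% of all 11102 tested genes. The 3 became 1 without knockout pool 1, knockout pool 2 or wild-type pool 1. They are members by choice, as are the 5 called over the whole chromosome (0.581% of 860 genes, Nfe2l2 left out). Chromosome 1, with 4 of 632 (0.633%), had a share of the same size.

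Every called gene of chromosome 2 other than Nfe2l2 is a member, so the genes left around Nfe2l2 hold no call by the choice of members, and nothing is read from that. With the members left out, for 23 of 92 genes within 50 on each side (25%) the groups of 3 did not overlap at some probe set, and for 43 of 192 within 100 (22.4%), against 20.2% on other chromosomes. Altered genes were taken out near Nfe2l2 and not on the other chromosomes, so the shares here and in the next sentences are not like for like. The median absolute log2 difference at the brightest probe set was 0.16, 0.14 and 0.13 in these 3 sets. An unadjusted p under 0.05 was reached by 16 of these 192, 8.33%, where 8.22% of all tested genes reached it. Within 200 on each side, 3 other genes differed at least 2-fold without being called, chosen here after their values were seen. They lie on the side of Haus2, at 139, 153 and 164 genes. Tmem87a read 146, 152 and 150 across the knockout pools and 69.1, 14.2 and 2.94 across the wild-type pools, a difference of 2.86 ± 0.61 (limma adjusted p = 0.249). Its knockout pools were close together and its wild-type pools were spread. Exd1 was at 1.03 ± 0.24 (limma adjusted p = 0.296) and Bmf, a pro-apoptotic BH3-only gene, at -1.10 ± 0.24 (limma adjusted p = 0.273).

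**Figure D4:**
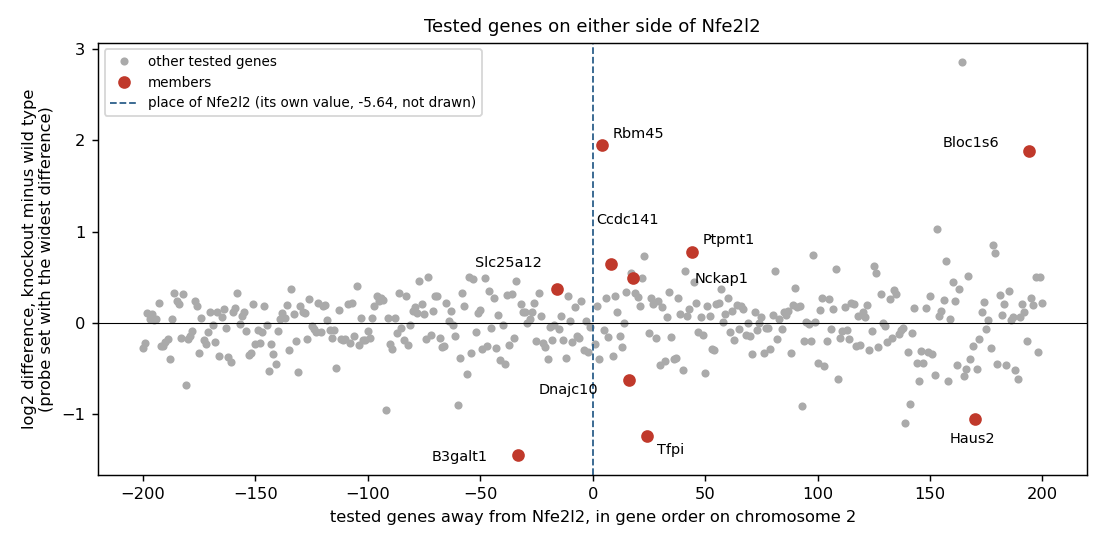
Log2 difference (knockout minus wild type, y axis) at the probe set with the widest difference of each tested gene, plotted by its place in gene order on chromosome 2 relative to Nfe2l2 (x axis, in tested genes); red points are the members and grey points the other genes. Members of both signs lie within 44 genes of Nfe2l2, and Haus2 and Bloc1s6 lie farther out, at 170 and 194 genes. For Bloc1s6 the probe set drawn is the only 1 of 3 with a higher mean in the knockout. For Haus2, 3 probe sets had a lower mean, the drawn one among them, and 1 had a higher mean. The grey point at 2.86 is Tmem87a, which was not called and was chosen after its values were seen.

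Partners of the members, mostly encoded elsewhere in the genome, were read on the same arrays. The 10 partner lists held 101 tested genes, of which 51 were higher and 50 lower, 0 were called by limma and 10 had an unadjusted p under 0.05. Over all 11102 tested genes 5710 were higher, 5392 lower and 913 had an unadjusted p under 0.05, with a median of 0.01. For Rbm45, other genes of proteins with RNA recognition motifs had 5 higher and 6 lower, a median of -0.09. Rbm47 was at -0.46 ± 0.11 (limma adjusted p = 0.302) and Celf1 at 0.17 ± 0.08. Celf1 is itself on chromosome 2, 45 tested genes from Nfe2l2 and next to Ptpmt1 in that order.

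For Tfpi, the tissue factor pathway and anticoagulant genes had 7 higher and 6 lower, a median of 0.06. Serpind1, or heparin cofactor II, was at 0.19 ± 0.08 and F7, the protease that tissue factor activates, at 0.21 ± 0.09 (limma adjusted p = 0.622 and 0.657). For Ptpmt1, cardiolipin genes had 5 higher and 6 lower, a median of -0.01. Hadha, a trifunctional protein subunit, was at 0.25 ± 0.08 and Cds2, which makes CDP-diacylglycerol, at -0.26 ± 0.09 (limma adjusted p = 0.520 and 0.554). Cds2 lies on chromosome 2.

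For Haus2, augmin and gamma-tubulin genes had 7 higher and 4 lower, a median of 0.08, with Nedd1 at 0.24 ± 0.14 and Tubgcp3 at 0.18 ± 0.16. For Bloc1s6, subunits of BLOC-1 and of the related BORC complex had 6 higher and 4 lower, a median of 0.03, with Dtnbp1 at 0.14 ± 0.13 and Borcs8 at -0.21 ± 0.22. For Nckap1, WAVE and Arp2/3 genes had 12 higher and 1 lower, a median of 0.11 against 0.01 for all genes, and none reached an unadjusted p under 0.05. Wasf2 was at 0.23 ± 0.12 and Abi2 at 0.39 ± 0.22.

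For Dnajc10, endoplasmic reticulum oxidoreductases and degradation factors had 1 higher and 16 lower, a median of -0.25, and 6 of the 17 had an unadjusted p under 0.05. Edem2, which acts in mannose trimming, was at -0.31 ± 0.10 and the oxidase gene Ero1b at -0.65 ± 0.22 (limma adjusted p = 0.520 and 0.567). These partners lay mostly off chromosome 2, with 3 of the 17 on it: Edem2 itself, Hspa5 and Pdia3. Their summed normalized intensity ran from 26969 to 33396 for knockout and from 31802 to 37491 for wild type, which overlap. For B3galt1, related glycosyltransferase genes had 3 higher and 3 lower, a median of 0.00, with B3galt5 at -0.55 ± 0.40 and B3galnt1 at 0.23 ± 0.20. For Slc25a12, malate-aspartate shuttle genes had 4 higher and 3 lower, a median of 0.01, with Mdh2 at 0.16 ± 0.10 and Got1 at 0.38 ± 0.29. For Ccdc141, 2 of 10 measured partners were bright enough to be tested, Pafah1b1 at -0.11 ± 0.11 and Ndel1 at 0.08 ± 0.13.

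The genes most alike in pattern were sought as the tested probe sets of other genes with the highest Pearson correlation over the 6 arrays, which share the genotype contrast. For Rbm45 these were Tgfbi and Rab11b, at 0.995 and 0.990. For Tfpi they were Cmtm6, Palld and Stx5a, at 0.996, 0.994 and 0.993. For Haus2 1454112_a_at they were Ykt6, Srsf1 and Nfe2l2 itself, at 0.997, 0.994 and 0.991. For Bloc1s6 1457088_at they were Tmem106b, Atxn7l3b and Rnf145, at 0.997, 0.993 and 0.990. For Ptpmt1 Osbpl8 led at 0.993, for Nckap1 Ciao1 at 0.998, for Dnajc10 Dnajc13 at 0.992, for B3galt1 Ccl24 at 0.992, for Slc25a12 Gm6958 at 0.993 and for Ccdc141 Tln1 at 0.999. For the single most correlated gene of each member the log2 difference ran from -0.34 for Ccl24 to 0.33 for Ciao1, other than 1.25 for Gm6958. With 6 arrays and a search over all tested probe sets that have 1 gene symbol, such values are a description only.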

How the data were processed

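Liver RNA of 6 pools, 3 per genotype, had been labelled with biotin and hybridised to 1-colour Affymetrix arrays. The authors deposited linear probe set intensities, spanning 0.0174 to 16554.6. They were made with GCOS 1.4, the one tool in the submitters' processing notes. Algorithm and scaling were not given in the sources used here. No detection call was used. Of 45037 non-control probe sets, 34945 had 1 gene symbol, 932 several and 9160 none, and names were updated through Entrez identifiers to GRCm38.p6, whose gene order was also used.

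Values were taken as log2(intensity + 5.26), the 25th percentile of all values, and quantile normalized, and such a fold understates the change of dim probe sets. Probe sets with a mean at or above the median (22519) were fitted in R 4.3.3 by limma 3.58.1, using lmFit and a trended eBayes. P-values were adjusted over all of them by the Benjamini-Hochberg method, and the threshold was 0.05. Values of probe sets under the filter come from a fit without it. The members and gene lists were chosen with earlier results of these data known. Named genes are Nfe2l2, the members, any other called gene near Nfe2l2 (there was none), the 2 genes of each partner list with the smallest p, and the 3 most correlated genes per member, of which some are printed. Tmem87a, Exd1 and Bmf fall outside this rule and were chosen after their values were seen. A gene in a list took its brightest probe set and counted as called if any tested probe set was. Labels call the arrays biological replicates, and p-values measure the spread between pools.

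On data simulated with the spread of this comparison (22519 probe sets), 9.20% of changes of 0.5 log2 were recovered, 51.6% of changes of 1, 86.0% of changes of 2 and 99.2% of changes of 4. Equal numbers of each size were planted. The adjusted threshold depends on how many large changes there are, so with fewer of them recovery would be lower. Alternatives were median centring, pseudocounts of 1.315 and 21.04, each pool left out, a replicate block, array weights, no trend, no filter or one at the 70th percentile, other windows and the brightest probe set.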

Additional observations from a re-analysis of the deposited data

How the results depend on the processing

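Of the 27 tested member probe sets, each refitted in 13 or 14 alternatives, all kept the sign of their difference but 3. The exceptions were 1417349_at of Bloc1s6, 1452230_at of Dnajc10 and 1444489_at of Slc25a12, all within 0.1 of 0. The 4 under the filter were refitted in 1 or 2 alternatives, which says nothing of their stability. Of 370 member values under alternatives, 3 moved by more than the SD between pools. Calls were less stable. The count of called member probe sets, 5 with all pools, was 2 when the filter stood at the 70th percentile, 1 with no filter or no intensity trend, and 1 to 2 when each pool was left out. Rbm45 alone was called in every one of these fits. They reuse the values by which the members were chosen, so this is a description and supports nothing. Genes called within 100 on each side of Nfe2l2, 3 with all pools, were 1 with no filter or no intensity trend, 1 to 3 when each pool was left out, and 5 in windows of 200 or 400 genes and over all of chromosome 2. With a replicate block, 1 member probe set and 1 gene near Nfe2l2 were called. The labels do not say that replicate numbers mark pairs, and the main fit did not take them as pairs. Deviations of same-numbered pools correlated at 0.13, 0.05 and 0.25, all positive, and 4 of 6 arrays correlated best with their own number. The main fit takes no account of any effect that same-numbered pools share. The cause of these changes was not tested. Partner genes called were 0 in all 14 alternatives and with the brightest probe set. Dim probe sets, such as those of Ccdc141 under the filter, limit what can be read.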
